A study of Homo sapiens with 2 samples.

Results

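Chromosome ends were examined for contact with a single reporter site in U2OS, a human osteosarcoma cell line, by 4C-seq. The method, chromosome conformation capture on a circular template, joins DNA pieces that lie close together in fixed nuclei and reads out those joined to one fragment, the vantage point. The ends were taken as the first 2 Mb and the last 2 Mb of the autosomes other than 6, 12 and 17, in the 50 kb probes of the deposited table (build hg18). The left ends of the acrocentric chromosomes 13, 14, 15, 21 and 22 were not included, since their short arms carry repeats and are largely absent from the assembly. The rule gave 33 ends of 40 probes each, 14 left and 19 right, with 1320 probes of the 61607 in the table. They were compared with the interior of the same 19 chromosomes, 48394 probes.

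Both libraries came from cells with the transgenes DRGFP, TRE-I-SceI and Tet-On, and are 2 independent experiments of the same kind; the series has no control group. DRGFP is an integrated reporter for the repair of a double-strand break made by the nuclease I-SceI, and the vantage point was a fragment of this transgene beside the I-SceI site. No treatment is recorded, so whether the break was induced is not known from the labels. The highest probe of the table lies on chromosome 12, and chromosomes 6, 12 and 17 are left out by the rule. Values are reads per 1000000 reads of the library (RPM), from which whole reads were recovered. Replicate 1 held 944456 reads and replicate 2 held 454091, so that 1 read is 1.06 RPM in replicate 1 and 2.20 RPM in replicate 2. The recovered reads sum to slightly more over the probes, 947121 and 454478, so shares of library reads are relative to the totals behind the RPM scale. Each experiment is 1 library, and 2 libraries allow no test with p below 0.5 (exact two-sided sign permutation). Intervals on shares are 95% Clopper-Pearson intervals and cover counting error only: reads made by PCR can repeat the same molecule, and neighbouring probes are not independent.

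Human chromosomes end in telomeres, arrays of a short repeat bound by the shelterin proteins, and the repeats themselves are not resolved in the assembly. The subtelomeric DNA next to them holds segments copied between chromosomes, with families of olfactory receptor, zinc finger and pseudogene sequences. Further inward, many ends are dense in genes and rich in G and C. U2OS cells lack telomerase activity and keep their telomeres by recombination, the pathway called alternative lengthening of telomeres, in which chromosome ends are sites of break repair. Chromosome number and copy number in U2OS differ from those of a normal cell, and the copy number of each end was not used here.

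The first enzyme of the assay, HindIII, cuts at AAGCTT, and only sequence beside such a site can be captured. The second enzyme, Csp6I, cuts at GTAC. No hg18 sequence was used, so sites per probe were not counted; the promoters of the genes named at the ends (RefSeq, GRCh38.p14) were read in their place. Of 720 gene names in the ends, 554 matched a current symbol and 407 had a promoter sequence, 250 bases before to 50 after the start of the gene. Both motifs are palindromes, so a match on either strand is the same match, and they cannot overlap each other. HindIII sites were found in 5 of the 407 end promoters, 1.23% (interval 0.400% to 2.84%). In promoters of the interior the share was 408 of 7481, 5.45% (4.95% to 5.99%), and in all 27305 RefSeq promoters it was 5.87%. Csp6I sites were found in 19.9% of end promoters, in 26.8% of interior promoters and in 29.8% of all. The median share of G and C was 71.7% in end promoters, 63.3% in interior promoters and 58.3% in all. Promoters make up a small part of a probe, and a window without a match says only that these letters are not in it.

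Shown first are 3 of the 5 end promoters with a HindIII site, in capitals, of WDR37 (chr10:1056135-1056434, plus strand), ZNF586 (chr19:57769426-57769725, plus strand) and BDH1 (chr3:197573294-197573593, minus strand). After them stand the promoters of the genes at the highest end probe of each library, which hold no HindIII site. These are ADAP1, named CENTA1 in the table (chr7:954631-954930, minus strand, 82.7% G and C), and DOCK8-AS1, named C9orf66 (chr9:215701-216000, minus strand, 40.3% G and C). All are written 5′ to 3′ from GRCh38.p14, a build other than that of the probes.
WDR37: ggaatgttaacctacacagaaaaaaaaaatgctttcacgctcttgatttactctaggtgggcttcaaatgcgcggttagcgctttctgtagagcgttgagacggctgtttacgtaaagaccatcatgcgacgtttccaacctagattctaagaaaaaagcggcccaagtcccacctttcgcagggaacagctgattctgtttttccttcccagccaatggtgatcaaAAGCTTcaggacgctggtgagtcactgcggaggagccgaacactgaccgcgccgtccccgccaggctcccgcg
ZNF586: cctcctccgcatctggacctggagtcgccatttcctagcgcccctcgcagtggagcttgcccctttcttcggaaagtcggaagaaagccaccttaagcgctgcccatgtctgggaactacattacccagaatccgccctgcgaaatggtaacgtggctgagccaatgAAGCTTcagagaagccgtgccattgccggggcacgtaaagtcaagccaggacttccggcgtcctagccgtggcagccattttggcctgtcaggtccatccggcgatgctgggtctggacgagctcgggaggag
BDH1: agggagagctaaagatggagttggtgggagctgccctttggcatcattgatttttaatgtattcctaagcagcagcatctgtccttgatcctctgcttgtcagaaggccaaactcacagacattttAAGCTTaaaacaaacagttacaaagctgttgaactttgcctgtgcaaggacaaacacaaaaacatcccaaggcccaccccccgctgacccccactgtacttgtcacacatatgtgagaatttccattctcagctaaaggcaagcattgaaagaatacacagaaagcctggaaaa
ADAP1: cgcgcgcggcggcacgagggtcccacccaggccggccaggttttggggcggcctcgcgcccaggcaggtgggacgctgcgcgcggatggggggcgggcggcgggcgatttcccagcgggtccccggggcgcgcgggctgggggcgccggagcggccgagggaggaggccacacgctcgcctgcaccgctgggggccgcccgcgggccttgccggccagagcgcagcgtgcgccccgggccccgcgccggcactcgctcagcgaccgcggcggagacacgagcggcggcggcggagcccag
DOCK8-AS1: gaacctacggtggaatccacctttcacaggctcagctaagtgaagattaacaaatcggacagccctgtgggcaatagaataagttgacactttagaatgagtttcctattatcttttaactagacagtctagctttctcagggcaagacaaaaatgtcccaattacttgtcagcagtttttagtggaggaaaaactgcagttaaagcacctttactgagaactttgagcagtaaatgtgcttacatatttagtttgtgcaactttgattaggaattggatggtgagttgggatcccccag

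Chromosome ends had reads somewhat less often than the interior in both libraries. Reads reached 62 end probes in replicate 1, 4.70% (3.62% to 5.98%), against 6.59% of interior probes (6.37% to 6.81%). In replicate 2 they reached 86 end probes, 6.52% (5.24% to 7.98%), against 7.01% of interior probes (6.79% to 7.24%). Over all 49714 probes of the 19 autosomes, reads were found at 6.54% in replicate 1 and 7.0% in replicate 2. The intervals were apart in replicate 1 and overlapped in replicate 2. The difference, ends minus interior, was -1.89 percentage points in replicate 1 and -0.50 in replicate 2, a mean of -1.20 ± 0.986 (SD, n = 2; exact two-sided sign permutation p = 0.5, the smallest that 2 libraries allow). The mean of this within-library difference was larger than its SD, and both libraries had the same sign, but 2 libraries cannot pass a threshold of 0.05. With the interior limited to 2 to 10 Mb from an end, the difference was -1.63 points in replicate 1 and 0.49 in replicate 2. Without 1 Mb windows that have no gene name, it was -2.32 points in replicate 1 and -0.97 in replicate 2.

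The mean signal was also lower at the ends. It was 1.88 and 2.90 RPM per end probe in replicates 1 and 2, against 3.99 and 3.92 RPM per interior probe. The difference was -1.56 ± 0.773 RPM (n = 2, exact two-sided sign permutation p = 0.5). The ends held 2343 reads of replicate 1 and 1740 of replicate 2, which is 0.248% and 0.383% of the libraries. Most of these reads fell on few probes: the 5 highest held 61.9% of the end reads in replicate 1 and 61.0% in replicate 2. A detected end probe had a median of 2 reads in replicate 1 and 3 in replicate 2, against 3 and 4 at a detected interior probe. Probes with just 1 read made up 33.9% and 36.05% of the detected end probes, against 41.5% and 31.8% of the detected interior probes. Single reads were thus less frequent at the ends in replicate 1 and more frequent in replicate 2.

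**Figure D1:**
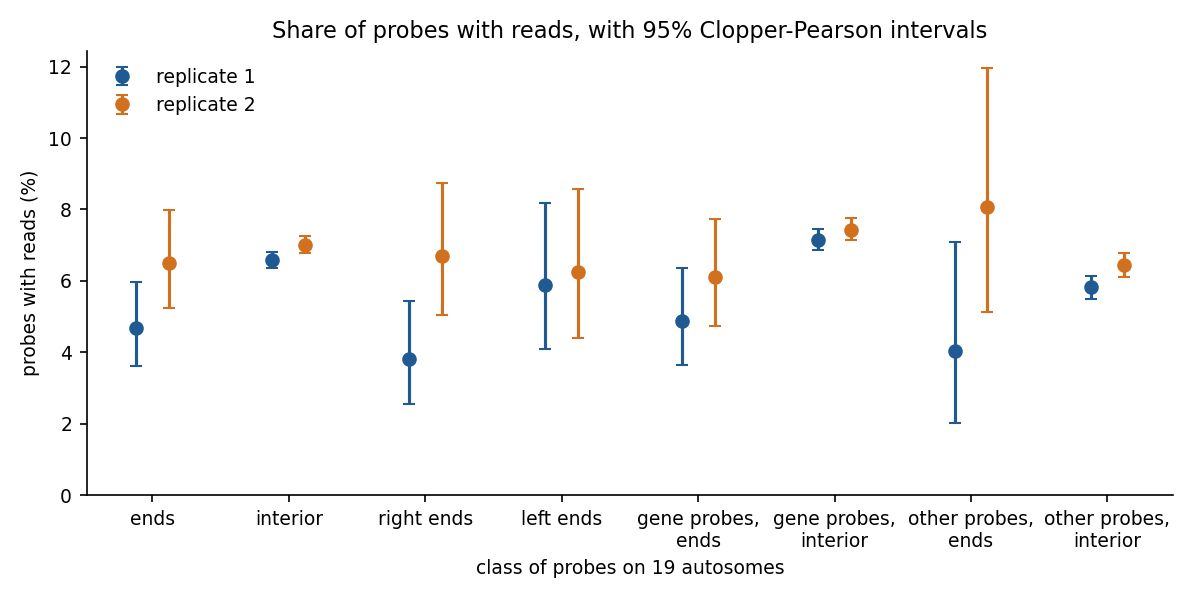
Share of 50 kb probes with reads (vertical axis, %) for classes of probes on 19 autosomes, by replicate, with 95% Clopper-Pearson intervals as bars. Ends lie below the interior in both replicates, at 4.70% against 6.59% in replicate 1 and 6.52% against 7.01% in replicate 2, and the intervals of replicate 2 overlap.

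A larger share of the ends than of the interior is genic: 79.3% of end probes overlap a gene in the deposited annotation, against 57.6% of interior probes. Their detection was nevertheless not higher. Gene probes had reads at 4.87% and 6.11% of end positions in replicates 1 and 2, against 7.16% and 7.44% of interior positions. The difference between these gene probes was -1.81 ± 0.678 points (n = 2, exact two-sided sign permutation p = 0.5), in the same direction in both libraries. Probes without an overlapping gene had reads at 4.03% and 8.06% of end positions, against 5.82% and 6.44% of interior positions, so that the direction differed between libraries.

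Within the interior, gene probes had reads more often than other probes, by 1.17 ± 0.234 points. The other probes there include whole stretches without a gene name, most of them without reads. With the interior cut into 1202 equal stretches, 83 had no reads in either library, but only 16 of the 1132 with a gene name. Such stretches lower the share of the other probes. The contrast without them was not computed, so how much of it they account for is not known. Within the ends the difference between gene probes and other probes was 0.84 points in replicate 1 and -1.95 in replicate 2, a mean of -0.55 ± 1.97. At 1 read or more the libraries thus had opposite signs, and the contrast at the ends minus that in the interior, -1.72 ± 1.74, had an exact two-sided sign permutation p of 0.5. Since it is built on the interior contrast, this value carries the same limit. When probes with 2 reads or more were counted, the difference within the ends was positive in both libraries, 0.68 and 0.63 points. With equal weight for each chromosome it was also positive in both, 1.28 and 1.22 points.

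Ends also differed among themselves in gene content, from 8 gene probes of 40 at the right end of chromosome 4 to all 40 at the right ends of chromosomes 1, 9 and 14. The 11 ends with the fewest gene probes, 8 to 31 each, had reads at 7.27% and 8.18% of probes in replicates 1 and 2. The 11 with the most, 36 to 40 each, had reads at 3.41% and 6.59%, and the 11 between them at 3.41% and 4.77%. Over the 33 ends, the number of gene probes and of detected probes had a Pearson's r of -0.36 and -0.41 in replicates 1 and 2, and a Spearman's rho of -0.21 and -0.26. These are descriptions over ends that share 1 library, and the base composition and the number of HindIII sites of each end were not used.

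Per gene name, reads were found at 6.81% and 8.19% of the 720 names in the ends, against 12.9% and 13% of the 13888 names in the interior. Over all 18661 names the shares were 14.4% and 14.7%. A name counts as detected if any of its probes has reads, and the number of probes per name was not matched between ends and interior.

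Detection did not follow a steady course from the telomere inward. In bins of 500 kb, 6.67%, 3.03%, 4.24% and 4.85% of the 330 probes had reads in replicate 1 from the outermost bin to 2 Mb. In replicate 2 the shares were 6.36%, 4.85%, 6.67% and 8.18%. The lowest of the 4 bins was that from 500 kb to 1 Mb in both libraries. The outer 1 Mb minus the inner 1 Mb gave 0.30 points in replicate 1 and -1.82 in replicate 2, so the sign differed between libraries. At 2 reads or more it was -0.45 in each library. The probes just inside the 2 Mb limit, in the last bin, had reads at 4.85% and 8.18%, and those just outside it, up to 2.5 Mb, at 9.39% and 6.06%. From 2 to 10 Mb the share was 6.33% in replicate 1 and 6.02% in replicate 2, with bins between 3.33% and 9.39% in replicate 1 and between 3.94% and 9.39% in replicate 2.

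**Figure D2:**
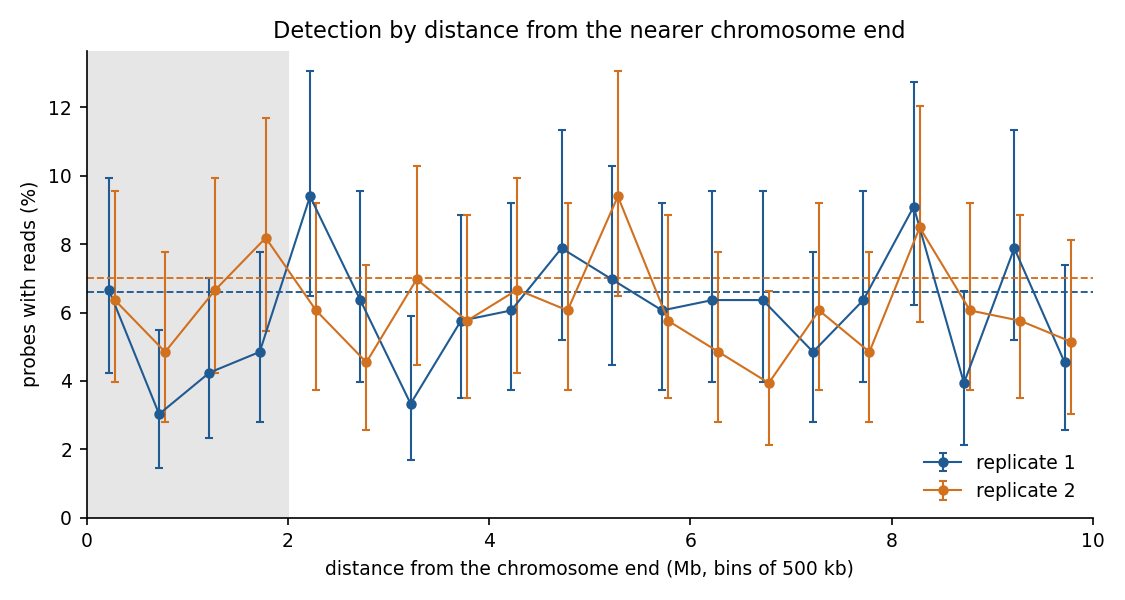
Share of probes with reads (vertical axis, %) by distance from the nearer chromosome end (horizontal axis, Mb, bins of 500 kb with 330 probes each), by replicate, with 95% Clopper-Pearson intervals. The grey area marks the 2 Mb ends and dashed lines the share over the interior; the bins of the ends lie between 3.03% and 8.18%, and those further inward between 3.33% and 9.39%.

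Right ends were lower than left ends in replicate 1 and not in replicate 2. On the 14 chromosomes with both ends, reads reached 3.39% of the right-end probes and 5.89% of the left-end probes in replicate 1. In replicate 2 the shares were 6.43% at right ends and 6.25% at left ends. The difference, right minus left, was -1.16 ± 1.89 points, less than its spread. At 2 reads or more it was -1.96 in replicate 1 and -0.18 in replicate 2. The right ends of the 5 acrocentric chromosomes had reads at 5% and 7.5% of 200 probes. In replicate 1 these 10 detected probes held 12 reads in all, while in replicate 2 there were 275 reads on 15 probes, most of them at a probe of chromosome 13.

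By chromosome, the ends were lower than the interior of their own chromosome in both libraries for 12 of the 19 chromosomes, higher in both for 4 and of mixed direction for 3. The 4 with higher ends were chromosomes 3, 13, 18 and 22. Of these, 13 and 22 are acrocentric, and their short arms, largely absent from the assembly, count as interior here. This can lower their interior share, and by how much was not measured. On chromosome 3, 11.3% of the end probes had reads in each library, against 7.21% and 7.62% of the interior, a difference of 3.83 ± 0.289 points. Its right end alone had reads at 5% and 7.5% of probes in replicates 1 and 2, below the interior. The right end of chromosome 18 was also below, at 2.5% in each library against 6.38% and 7.83%. On these 2 chromosomes only the left end was thus higher. On chromosome 10 the difference was -4.63 ± 1.74 points and on chromosome 11 -4.38 ± 2.00. Leaving out each chromosome in turn moved the difference over all ends between -1.51 points, without chromosome 3, and -0.95 points, without chromosome 2. Without the 5 acrocentric chromosomes, whose short arms count as interior here, the difference was -1.63 ± 0.846.

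Most ends held between 0 and 3 detected probes. The median end had 1 probe with reads in replicate 1 and 3 in replicate 2, with a range of 0 to 7 and 0 to 6. Cutting the interior into 1202 stretches of 40 probes gave medians of 2 and 3 and a range of 0 to 11 in both. The SD over the ends was 1.73 probes in each library, against 1.34 and 1.56 for binomial counts with the same mean. Over the interior stretches it was also above the binomial value, at 1.83 against 1.57 in replicate 1 and 2.02 against 1.62 in replicate 2. The counts of the ends in the 2 libraries had a Pearson's r of 0.59 and a Spearman's rho of 0.62 over 33 ends. The same correlation over the interior stretches was 0.38 and 0.37, and none of these was tested.

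**Figure D3:**
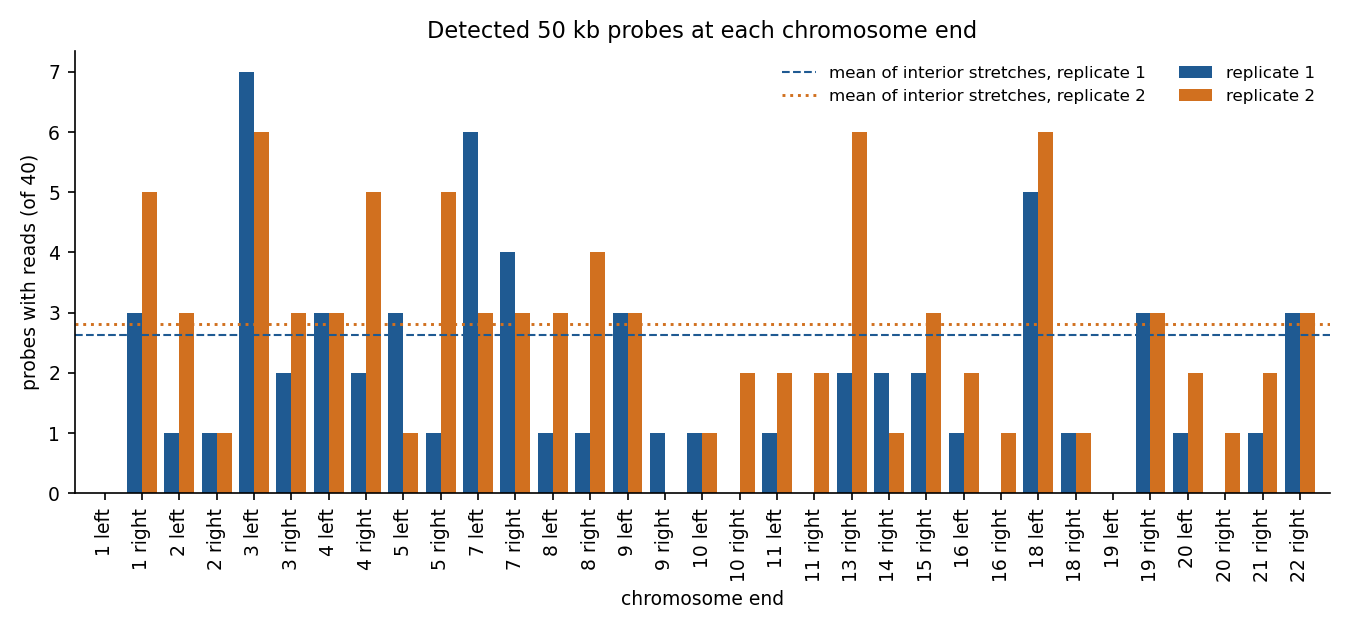
Number of the 40 probes with reads (vertical axis) at each of 33 chromosome ends (horizontal axis, chromosome and side), by replicate; lines mark the mean over 1202 interior stretches of 40 probes. The left end of chromosome 3 has 7 and 6 detected probes, and the left ends of chromosomes 1 and 19 have none in either replicate.

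The end with the highest share was the left end of chromosome 3, with reads at 7 probes in replicate 1 and 6 in replicate 2 (16.3% ± 1.77). It carries 16 gene probes and 6 gene names, fewer than most ends. Its 2 named genes with reads are both cell adhesion genes of the nervous system. CHL1 had 37 and 8 reads at neighbouring probes (200001 to 250000 and 250001 to 300000) in replicate 1 and none in replicate 2. CNTN6, which encodes a contactin, had 2 reads in replicate 1 (1400001 to 1450000) and 1 read in replicate 2 (1300001 to 1350000), at different probes. The highest probes of this end lay at 1.0 to 1.1 Mb, where 254 and 195 reads stood side by side in replicate 1 against 0 and 1 in replicate 2. Without this end, an alternative added after seeing the data, the difference between ends and interior was -1.53 ± 1.08 points.

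The left end of chromosome 18 followed, with 5 and 6 detected probes (13.8% ± 1.77). In replicate 1 its probes with reads included COLEC12, a scavenger receptor gene, with 9 reads, USP14, a deubiquitinase gene of the proteasome, with 4 reads, and a probe without a gene (1000001 to 1050000) with 317 reads. In replicate 2 they included ENOSF1, which overlaps the thymidylate synthase gene in antisense, with 12 reads, and CETN1, a centrin gene, with 2 reads. The single probe of this end detected in both libraries, from 500001 to 550000, had 4 reads in replicate 1 and 1 in replicate 2. The libraries thus shared the high count of this end and a single probe of it.

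The left end of chromosome 7 had 6 and 3 detected probes (11.3% ± 5.30). Its CENTA1 probe, now ADAP1, an Arf GTPase-activating gene (950001 to 1000000), had 366 reads and 388 RPM in replicate 1, the highest end probe of that library, and 0 in replicate 2. The next probe outward, at C7orf20, now GET4, had 10 reads in replicate 2 and none in replicate 1. The one beyond it, at UNC84A, now SUN1, a nuclear envelope gene that anchors telomeres in meiosis, had 2 reads in replicate 1 and none in replicate 2. MAD1L1, a gene of the mitotic spindle checkpoint, had 26 and 2 reads at separate probes of replicate 1 and none in replicate 2.

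The left ends of chromosomes 1 and 19 had no reads in either library. A count of 0 of 40 probes allows a share of up to 7.5% in each library by the limit of 3 counts. By the Clopper-Pearson interval it allows up to 8.81%. Both are above the interior share of each library, so neither library alone tells these ends from the interior. Reads in at least 1 library were found at 12.3% of interior probes, above both limits. The limits cover counting error only, and neighbouring probes are not independent. These 2 ends were also picked as the lowest of 33, and the difference was not tested. Of the interior stretches, 83 of 1202 (6.91%) had no reads in either library, against 2 of the 33 ends (6.06%). Among the 1132 interior stretches with a gene name, 16 (1.41%) were empty. Reads at 5 or more probes in both libraries were found at the left ends of chromosomes 3 and 18, beside 5.07% of the interior stretches. The empty ends are dense in genes, with 34 and 38 gene probes of 40. The right ends of chromosomes 9, 16 and 20 had reads at a single probe over both libraries. These were AGPAT2, an enzyme gene of lipid synthesis, with 12 reads in replicate 1, FANCA, a Fanconi anaemia repair gene, with 1 read in replicate 2, and DIDO1 with 3 reads in replicate 2.

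Of the 1320 end probes, 133 had reads in at least 1 library, with 12.3% over all probes of these chromosomes as background, and 15 had reads in both, 1.14% against 1.28%. They made up 24.2% of the end probes detected in replicate 1 and 17.4% of those in replicate 2. If the libraries were independent, the detection shares would give 4.04 shared probes, and the number found was 3.71 times that. In the interior 623 probes were shared, 2.79 times the 224 expected. The difference between these ratios was not tested.

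The shared probes lay on 12 ends, 10 at left and 5 at right ends, and 10 of them overlap a gene. None had 10 reads or more in both libraries, against 49 of all probes on these chromosomes (0.0986%). In 10 of the 15 the lower library had a single read, and in 7 a library had 50 reads or more while the other had at most 3. Such pairs numbered 183 of the 623 shared probes of the interior. Where an end probe had 50 reads or more, the other library had reads at 3 of 11 probes high in replicate 1 and at 4 of 8 high in replicate 2, always 1 to 3 reads, beside 6.52% and 4.70% of all end probes. Among interior probes of that level the shares were 26.5% of 634 and 25.2% of 413, above the 7.01% and 6.59% of all interior probes.

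**Figure D4:**
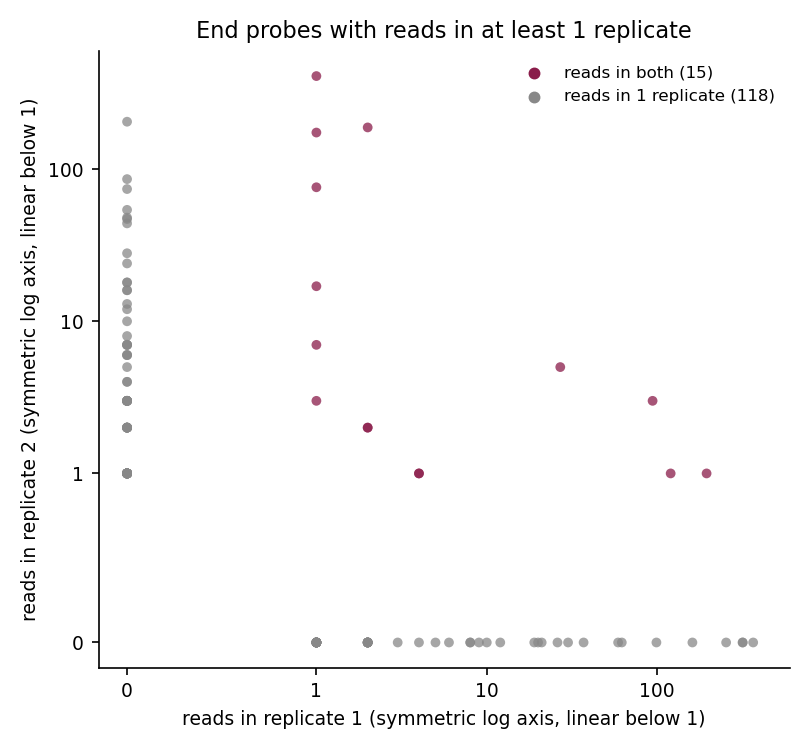
Reads of the 133 detected end probes in replicate 1 (horizontal axis) and replicate 2 (vertical axis), on symmetric log axes that are linear below 1. Only 15 probes have reads in both replicates, and no probe reaches 10 reads in both; most lie on an axis, with 0 reads in the other replicate.

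Several shared probes had few reads in both libraries. Probes without a gene on chromosome 7 (158750001 to 158800000) and chromosome 18 (500001 to 550000) each had 4 reads (4.24 RPM) in replicate 1, against 1 read (2.20 RPM) in replicate 2. IFITM1, an interferon-induced gene that restricts virus entry (chromosome 11, 300001 to 350000), had 2 reads in each library, 2.12 and 4.40 RPM. PDCD6, a calcium-binding protein gene of vesicle transport (chromosome 5, 450001 to 500000), had 1 and 3 reads in replicates 1 and 2, 1.06 and 6.61 RPM. Sums under 10 reads were not tested between the libraries.

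The highest value in both libraries together, by the lower replicate, was at a probe without a gene on chromosome 9 (1450001 to 1500000), with 27 and 5 reads, or 28.6 and 11.01 RPM. Its exact two-sided binomial test between the libraries gave an adjusted p of 0.0592 over the 3726 probes with at least 10 reads in sum. A probe without a gene on chromosome 4 (189600001 to 189650000) had 94 and 3 reads, 99.5 and 6.61 RPM. The probes on either side of it had 1 read each in replicate 2, so that replicate 2 covered 3 neighbouring probes there. On chromosome 13, TUBGCP3, a gene of the gamma-tubulin complex (112200001 to 112250000), had 1 and 7 reads, and its next probe had 3 reads in replicate 2. C13orf35, now ATP11AUN (112350001 to 112400000), had 1 and 17 reads.

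Other shared probes were high in a single library. C9orf66, now the non-coding DOCK8-AS1 (chromosome 9, 200001 to 250000), had 1 read in replicate 1 and 409 reads, 901 RPM, in replicate 2, the highest end probe of that library. RUFY1, an endosomal trafficking gene (chromosome 5, 178900001 to 178950000), had 2 and 188 reads. MYOM2, a gene of the muscle sarcomere (chromosome 8, 1950001 to 2000000), had 1 and 174 reads. WHSC1, now NSD2, a histone H3 methyltransferase gene (chromosome 4, 1900001 to 1950000), had 120 reads in replicate 1 and 1 in replicate 2. These 4 differed between the libraries by the exact two-sided binomial test, with adjusted p values from 2.5e-196 at C9orf66 to 7.13e-19 at WHSC1; the test compares these 2 libraries and not conditions. It takes each read as independent, which PCR copies are not, so these p values are too small by an unknown amount and the calls cover counting error only.

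Among probes found in 1 library, CDC16, a subunit gene of the anaphase-promoting complex (chromosome 13, 114000001 to 114050000), had 205 reads in replicate 2 and none in replicate 1. CTBP1, a transcriptional corepressor gene (chromosome 4, 1200001 to 1250000), had 86 in replicate 2 and none in replicate 1. In replicate 1, IL9RP2, a pseudogene of the interleukin 9 receptor (chromosome 10, 100001 to 150000), had 161 reads, with none in replicate 2. A probe of chromosome 1 with a clone-based name (245450001 to 245500000) had 318 reads in replicate 1 and none in replicate 2. Over the end probes with at least 10 reads in sum, 40 of 41 differed between the libraries, 19 higher in replicate 1 and 21 higher in replicate 2. Over all 3726 such probes 95.8% differed, 46.9% higher in replicate 1 and 49% higher in replicate 2, so the ends stood near the background.

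Detected end probes were also grouped into runs of neighbouring probes with reads in either library. Of 111 runs, 93 were single probes, 14 were pairs and 4 were runs of 3, on chromosomes 1, 4 and 7. No interior value is set beside these counts, so they do not tell whether neighbours were rare or frequent. PTPRN2, a long receptor phosphatase gene, fills 21 probes of the right end of chromosome 7. Reads fell on 2 of these in replicate 1, 4 reads in all, and on 2 different ones in replicate 2, 7 reads in all. ADARB2, an RNA-editing family gene with 12 probes at the left end of chromosome 10, had 1 read in replicate 2. SNTG2, a syntrophin gene with 10 probes at the left end of chromosome 2, had none. Over the 18 gene names with 5 or more end probes, 4.44% of 135 probes had reads in each library, against 5.02% and 6.33% of the 916 probes of the other names.

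Names from a list of subtelomeric genes and copied families had reads in replicate 1 and none in replicate 2. Of 25 such probes, 5 had reads in replicate 1 (20%, interval 6.83% to 40.7%) and 0 of 25 in replicate 2, with an interval that reaches 13.7%. Over all end probes the shares were 4.70% in replicate 1 and 6.52% in replicate 2. The 5 were IL9RP2 with 161 reads, PLEKHG4B with 62, and FRG1, ZNF595 and a ZNF718 transcript with 1 each. The OR4F olfactory receptor names, on 4 probes, and DOCK8, with 5 probes, had none. Reads from near-identical copies may map to several ends or be dropped by the authors' alignment, so these positions are uncertain.

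Of 35 telomere maintenance genes, 21 were found by name in the table and 4 of them had reads in at least 1 library. Listed genes not found by name, RTEL1 among them, were not placed in ends or interior. Of the 21, only TERT, the gene of the catalytic subunit of telomerase, lies in the ends (chromosome 5, 1300001 to 1350000). It had 0 reads in both libraries. The others with reads lie in interiors: BLM, a helicase gene, had 155 and 7 reads over its 3 probes, and SMARCAL1, a gene of fork remodelling, had 8 and 31. POT1, a shelterin gene, had 1 read in replicate 2 and NBN, a gene of the break-sensing MRN complex, 1 read in replicate 1. Their 3 genes with reads in each library, of 21, compare with 14.4% and 14.7% of all gene names.

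Ends of the chromosomes left out by the rule set these values in context. On chromosome 12, which holds the highest probe of the table, 55.0% and 57.5% of the 40 probes of the left end had reads, with a mean of 45.0 and 30.2 RPM, while the right end had 0 and 2 detected probes. On chromosome 6 the right end had 6 and 8 detected probes and the left end 4 in each library. On chromosome 17 the right end had 2 and 7 and the left end 1 and 3. Among the 33 ends on other autosomes the highest counts were 7 in replicate 1 and 6 in replicate 2, below the left end of chromosome 12 in both libraries and below the right ends of chromosomes 6 and 17 in replicate 2. No test was made between single ends.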

How the data were processed

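The material was U2OS cells with transgenes for DRGFP, TRE-I-SceI and Tet-On, in 2 independent 4C-seq experiments. By the labels' protocols, chromatin was fixed in formaldehyde, cut with HindIII, ligated, cut with Csp6I, circularised and amplified by inverse PCR. The signal columns that the authors deposited hold reads per 1000000 reads in windows of 50 kb: all values above 0 were whole multiples of a step (100% within 0.1 read), from which the library sizes were recovered. Per the submitters' processing notes the build is hg18. Aligner, read filters and counting method are not stated in what was used here. A total, a mean and the mitochondrial probe were left out. Shares, means and log2(RPM + 1) values were computed in each library with Python 3.11.15, pandas 2.3.3 and scipy 1.17.1, and set side by side as mean ± SD. Recovered counts were compared between libraries by an exact binomial test with Benjamini-Hochberg adjustment over the whole table, called at 0.05. The deposited table has no control samples. No test between classes took probes as replicates. Detected means at least 1 read. The detection difference and the binomial test were checked on simulated data with independent probes and reads, without PCR copies.

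The ends, gene lists and tests were chosen with earlier results of these data known. Named by rule were up to 25 end probes with reads in both libraries, the 5 highest end probes of each, telomere genes in the ends and the top probe of the 3 highest and 3 lowest ends; clone-based names are not printed, and 1 probe that the rule names is not reported here. Other genes, among them CHL1, CNTN6, PTPRN2 and those at chromosomes 7 and 18, were chosen after their values were seen. Old names were updated where a RefSeq table (GRCh38.p14) gave a single match. Alternatives covered end width, interior, weighting, thresholds, pseudocount and leaving out each replicate.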

Additional observations from a re-analysis of the deposited data

How the results depend on the processing

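The detection share and mean RPM, ends minus interior, kept the direction of their mean in all 13 and all 12 alternatives run; leaving out each replicate gave -1.89 to -0.50 points and -2.11 to -1.01 RPM. In replicate 2 alone the detection share turned to 0.49 points against the interior within 10 Mb and to 0.018 with chromosomes weighted equally. The log2 difference, -0.0552, moved to -0.0742 with ends of 1 Mb, -0.0716 without gene-free windows of 1 Mb, -0.0381 with ends of 5 Mb, -0.0326 against the interior within 10 Mb, -0.0909 and -0.0272 with pseudocounts of 0.1 and 10, and -0.117 over detected probes (-0.284 in replicate 1 and 0.0496 in replicate 2), and was -0.0667 to -0.0437 leaving out each replicate. At 1 read or more, contrasts within the ends had opposite signs in the libraries; at 2 reads or more each had the same sign in both. Right minus left ends was -2.50 to 0.18 points leaving out each replicate, outer minus inner -1.82 to 0.30, and gene minus other probes -1.95 to 0.84; the last turned to 0.66 at 2 reads or more and to 1.25 with chromosomes weighted equally. Shared end probes numbered 5 at 2 reads or more, 0 at 10 or more, 6 with ends of 1 Mb and 36 with ends of 5 Mb. A matching share over all probes of these chromosomes is given only at 1 read or more and at 10 or more. Probes that differ between the libraries were 29 of 30 tested with at least 20 reads in sum, beside 40 of 41 with at least 10. No single library gives the count of shared probes or that of probes that differ. Detected probes of the list of subtelomeric genes and copied families ranged from 0 to 5. Telomere genes with reads, 4 over both libraries, numbered 3 leaving out each replicate. Differences were taken within each library; no pairing of samples between groups applies, as there is 1 group. Causes were not tested. With a median of 2 or 3 reads per detected probe, the levels of most detected probes rest on few reads.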

Other observations

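Zinc finger genes named ZNF had reads at 4 of 37 end probes in each library (10.8%), against 9.09% and 5.68% of 440 interior probes in replicates 1 and 2. None of their end probes had reads in both libraries, where independent libraries would give 0.43, so this count says little. In the interior 6 of the 440 were shared. The detected ZNF end probes of replicate 1 held 4 reads in all. PEG3, an imprinted zinc finger gene at the right end of chromosome 19, had 19 reads at one probe in replicate 1 and 3 at the next in replicate 2.

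Olfactory receptor names had reads at 0 of 23 end probes in replicate 1, with an interval that reaches 14.8%, and at 3 in replicate 2 (13%). In the interior the shares were 6.33% and 9.49% of 158 probes. The receptor probes of replicate 2 were at OR5BU1, now OR14I1, with 24 reads, OR2M7 with 18 and OR2L13 with 1. These counts are small, no test was made, and the names were chosen after values had been seen.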
